A study of Mus musculus with 4 samples.

Results

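The genes described here are 41 ligands, receptors, signal transducers, inhibitors and targets of the FGF and ERK, LIF and STAT3, BMP and Nodal pathways, together with the kinase gene Gsk3b, out of 21774 protein-coding genes. They were examined in embryonic stem (ES) cells by ChIP-Seq of H3K4me3, trimethylation of histone H3 on lysine 4, which marks promoters, and of H3K27ac, acetylation on lysine 27, which marks active enhancers and promoters. The ES cells were derived from blastocysts of C57BL/6 (B6) mice, and of NOD mice, an inbred strain that develops autoimmune diabetes. Both were cultured in 2i, that is, with PD032590 against the kinase MEK and CHIR99021 against the kinase GSK3. Each strain and mark had 1 library (4 samples, no replicates), and any difference between strains cannot be told apart from a difference between these cultures or libraries. How many lines or animals each library came from is not given in the sources used here.

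The 4 lists examined hold regions that the authors called in one strain's library using the other strain's as control, and they are called strain-enriched here. Regions with like marking in B6 and NOD would not be listed, so a gene without a region is not a gene without the mark. The H3K4me3 libraries held 14791364 tags (aligned reads) in B6 and 22750449 in NOD, a ratio of 1.54. No depth is given for H3K27ac. The H3K4me3 lists held 7587 regions in B6 and 12077 in NOD, and the H3K27ac lists 5525 and 6126. Of 15 markers of naive ES cells, 4 had an H3K4me3 region in the B6 list and 6 in the NOD list, against 16.3% and 24.2% of all genes. Fgf4 and Tdgf1 among them are also members. Of 4 markers each, the B6 and NOD lists held 1 and 1 of primed epiblast, 2 and 0 of fibroblast feeders and 1 and 2 of primitive endoderm. The labelled cell type cannot be checked from lists that hold differences only. A member was counted for H3K4me3 when a region overlapped its gene body or lay within 5 kb of a transcription start site (TSS), and for H3K27ac when the authors' annotation, which takes the nearest TSS at any distance, named it. All positions are in mm10, and TSSs are those of RefSeq for GRCm38.p6, the same build.

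These pathways decide between self-renewal and differentiation in mouse ES cells. FGF4 is made by the ES cells themselves and acts through FGF receptors, RAS, MEK and ERK, which push the cells towards differentiation, and ERK switches on its own inhibitors of the DUSP, SPRY and SPRED families. LIF binds the receptor pair LIFR and gp130 (Il6st) and acts through JAK1 and STAT3, while BMP4 acts through SMAD1 and the ID proteins, and both sustain self-renewal. Nodal signals through activin receptors with the co-receptor CRIPTO (Tdgf1) and is restrained by the LEFTY proteins. The 2i compounds act directly on this network, since MEK lies between FGF receptors and ERK, and GSK3B is a target of CHIR99021.

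The sequences shown first are those of 11 strain-enriched regions. The regions of Fos, Fgf4, Lif, Id2 and Nodal are among those with values given in full under the naming rule, and those of Dusp6, Spred2, Etv5, Id1 and Id3 were chosen after their values were seen, because they lie close to a promoter or hold a motif of the pathway. All are from the GRCm38.p6 RefSeq genome, which is the C57BL/6J reference, and are printed 5′ to 3′ on the plus strand. They carry no NOD variants. Capitals mark matches to motifs searched on both strands, namely TTCNNNGAA (STAT palindrome), GGCGCC (bound by SMAD1 and SMAD5), TGTGNATT (FOXH1), TGACNTCA (CRE or AP-1 like), CCGGAAGT (ETS) and the SRF motif CCATA directly followed by TTAGG. The B6-enriched H3K4me3 regions of Fos (chr12:85473436-85473735, upstream of the TSS) and Dusp6 (chr10:99262363-99262662, upstream of the TSS) read as follows, the latter without a match.
Fos: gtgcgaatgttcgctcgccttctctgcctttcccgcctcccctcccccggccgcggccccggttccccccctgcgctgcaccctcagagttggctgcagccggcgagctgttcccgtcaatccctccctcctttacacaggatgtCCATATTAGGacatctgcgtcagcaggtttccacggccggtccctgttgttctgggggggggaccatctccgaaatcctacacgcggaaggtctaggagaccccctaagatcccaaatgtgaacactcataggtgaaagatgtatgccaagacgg
Dusp6: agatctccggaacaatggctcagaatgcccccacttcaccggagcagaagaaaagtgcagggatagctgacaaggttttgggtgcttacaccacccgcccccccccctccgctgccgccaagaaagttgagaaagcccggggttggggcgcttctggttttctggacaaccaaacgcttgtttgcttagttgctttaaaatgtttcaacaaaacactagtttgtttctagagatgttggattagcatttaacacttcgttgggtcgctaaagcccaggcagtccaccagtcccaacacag

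Both NOD-enriched regions of Lif are shown, the part of the H3K4me3 region before the TSS (chr11:4257351-4257567) and the whole H3K27ac region (chr11:4302774-4303007, intergenic). Neither held a searched motif.
Lif H3K4me3: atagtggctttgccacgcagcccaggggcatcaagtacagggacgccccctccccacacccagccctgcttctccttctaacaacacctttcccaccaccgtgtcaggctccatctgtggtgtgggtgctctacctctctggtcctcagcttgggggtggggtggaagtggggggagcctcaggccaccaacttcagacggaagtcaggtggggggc
Lif H3K27ac: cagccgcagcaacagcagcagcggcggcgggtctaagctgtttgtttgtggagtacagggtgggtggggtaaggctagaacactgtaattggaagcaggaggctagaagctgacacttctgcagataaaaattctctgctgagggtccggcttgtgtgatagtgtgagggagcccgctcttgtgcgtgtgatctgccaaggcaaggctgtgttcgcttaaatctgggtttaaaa

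For the FGF pathway, the NOD-enriched H3K4me3 regions are from upstream of Fgf4 (chr7:144856776-144857075), from an intron of Spred2 (chr11:19965022-19965321) and from an intron of Etv5 (chr16:22429109-22429408). The capitals are a CRE-like match in Fgf4 and a STAT palindrome of the stricter form TTCCNGGAA in Spred2 and in Etv5.
Fgf4: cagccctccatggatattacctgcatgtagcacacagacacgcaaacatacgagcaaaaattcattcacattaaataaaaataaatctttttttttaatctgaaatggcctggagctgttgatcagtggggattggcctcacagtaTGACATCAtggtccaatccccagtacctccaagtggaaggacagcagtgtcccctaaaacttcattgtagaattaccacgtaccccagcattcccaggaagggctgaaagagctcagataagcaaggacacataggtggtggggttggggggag
Spred2: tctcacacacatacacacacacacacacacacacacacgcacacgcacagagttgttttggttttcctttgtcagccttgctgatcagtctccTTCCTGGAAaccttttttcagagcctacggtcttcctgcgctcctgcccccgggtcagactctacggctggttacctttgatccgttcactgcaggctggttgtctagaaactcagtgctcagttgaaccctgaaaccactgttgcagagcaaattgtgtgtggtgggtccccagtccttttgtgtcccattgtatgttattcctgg
Etv5: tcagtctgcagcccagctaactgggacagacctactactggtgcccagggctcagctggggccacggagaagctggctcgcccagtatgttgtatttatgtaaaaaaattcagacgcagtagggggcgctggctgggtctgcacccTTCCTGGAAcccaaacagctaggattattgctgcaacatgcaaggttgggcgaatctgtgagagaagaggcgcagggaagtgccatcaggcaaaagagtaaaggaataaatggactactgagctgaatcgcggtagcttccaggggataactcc

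For the BMP and Nodal pathways, the NOD-enriched H3K4me3 regions are from downstream of Id1 (chr2:152739324-152739623), upstream of Id2 (chr12:25100480-25100779), downstream of Id3 (chr4:136147802-136148101) and upstream of Nodal (chr10:61413576-61413875). The capitals are GGCGCC in the 3 Id genes, with 3 matches in Id3, a STAT match near the start of the Id2 sequence, and a FOXH1 match in Nodal.
Id1: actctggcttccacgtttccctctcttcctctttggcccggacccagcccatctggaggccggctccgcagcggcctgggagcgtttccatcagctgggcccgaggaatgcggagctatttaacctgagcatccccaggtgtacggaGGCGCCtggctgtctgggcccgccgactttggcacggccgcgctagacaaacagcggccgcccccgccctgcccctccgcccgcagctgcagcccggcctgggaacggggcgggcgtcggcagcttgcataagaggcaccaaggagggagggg
Id2: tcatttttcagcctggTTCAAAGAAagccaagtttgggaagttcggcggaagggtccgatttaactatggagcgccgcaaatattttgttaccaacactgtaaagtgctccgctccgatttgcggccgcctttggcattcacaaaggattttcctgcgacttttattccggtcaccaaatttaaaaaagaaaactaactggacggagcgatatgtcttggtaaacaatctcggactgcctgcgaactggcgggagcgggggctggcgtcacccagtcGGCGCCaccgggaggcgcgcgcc
Id3: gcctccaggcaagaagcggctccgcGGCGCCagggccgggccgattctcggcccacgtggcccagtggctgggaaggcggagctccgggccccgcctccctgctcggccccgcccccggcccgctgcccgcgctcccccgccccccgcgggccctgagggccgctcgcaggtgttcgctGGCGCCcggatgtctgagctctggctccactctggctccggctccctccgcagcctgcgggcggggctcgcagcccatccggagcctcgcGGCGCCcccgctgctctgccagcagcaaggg
Nodal: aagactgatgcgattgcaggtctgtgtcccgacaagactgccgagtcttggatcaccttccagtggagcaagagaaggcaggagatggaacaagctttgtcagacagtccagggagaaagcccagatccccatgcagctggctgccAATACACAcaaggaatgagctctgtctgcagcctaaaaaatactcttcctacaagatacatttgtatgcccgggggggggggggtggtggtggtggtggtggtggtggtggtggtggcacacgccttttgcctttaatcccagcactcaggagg

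More members had NOD-enriched than B6-enriched H3K4me3. Of the 41 members, 8 (19.5%) had a region in the B6 list, against 16.3% of all protein-coding genes, and 19 (46.3%) had one in the NOD list, against 24.2% of all genes. The NOD library was also the deeper of the pair, which bears on members and other genes alike, and its part in the counts was not tested. In the B6 list only were Dusp6, Fos, Lifr, Jak1, Stat3, Smad7 and Tdgf1. In the NOD list only were Fgf4, Fgfr1, Fgfr2, Dusp4, Spred2, Etv5, Egr1, Mycn, Lif, Il6st, Pim1, Smad1, Smad6, Id1, Id2, Id3, Nodal and Gsk3b. Lefty2 had 1 region in each list, and 15 members had none. This split into 1 list, both or neither was not made for all genes, so it shows no trait particular to the members. Within 5 kb of a TSS, leaving gene bodies aside, the counts were 4 members in B6, against 8.3% of all genes, and 15 in NOD, or 36.6% against 15.1%. Members were shorter than other genes, with a median length of 12.3 kb against 17.2 kb.

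The H3K27ac lists showed the opposite order. In the B6 list 22 members (53.7%) were named, against 16.8% of all genes, and in the NOD list 16 (39.0%), against 18.3%. In the B6 list only were Fgfr2, Dusp5, Spry1, Spry2, Spry4, Etv4, Etv5, Socs3, Smad6, Id2, Id3 and Nodal. In the NOD list only were Fgf4, Fgfr1, Myc, Lif, Lifr and Pim1. Both lists named Dusp6, Spred1, Spred2, Fos, Mycn, Il6st, Pim3, Bmpr1a, Smad7 and Id1, and 13 members were in neither. For this mark, too, the split was not made for all genes. Naming by the nearest TSS favours genes with few neighbours, and the stretch of genome nearest to a member's TSSs had a median of 112 kb, against 49.0 kb over all genes. This stretch had a median of 147 kb for the 28 members named in either list and 55.1 kb for the 13 in neither. Its part in these shares was not tested, but by position alone (gene body or within 5 kb of a TSS) 10 members (24.4%) had a B6 region, against 14.4% of all genes, and 3 members (7.32%) had a NOD region, against 16.3%. Counted by the nearest TSS instead, H3K4me3 regions were assigned to 19 members in B6 (46.3%, against 22.9% of all genes) and 28 in NOD (68.3%, against 31.4%).

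**Figure D1:**
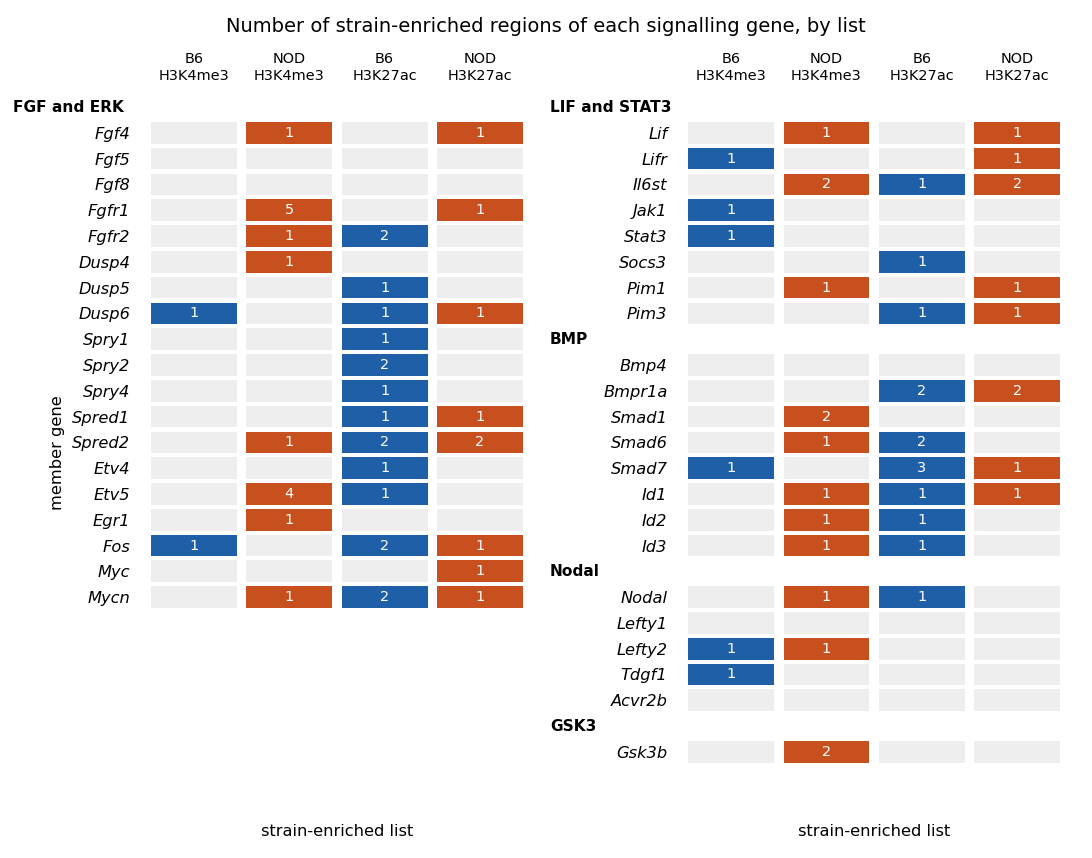
Number of strain-enriched regions of each of the 41 members (rows, by pathway) in each of the 4 lists (columns, B6 in blue and NOD in orange; grey is none). The NOD H3K4me3 column is filled for 19 members and the B6 H3K4me3 column for 8, while the B6 H3K27ac column is filled for 22 and the NOD H3K27ac column for 16.

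By role, inhibitors and targets were named more often in the B6 than in the NOD H3K27ac list. Of 24 feedback inhibitors, inhibitors and targets of all pathways, 18 (75%) were named in the B6 H3K27ac list and 10 (41.7%) in the NOD list. Of the 17 ligands, receptors, transducers and Gsk3b, 4 (23.5%) were named in B6 and 6 (35.3%) in NOD. For H3K4me3 both role groups had similar NOD shares, 11 of 24 (45.8%) and 8 of 17 (47.1%), and lower B6 shares, 4 of 24 (16.7%) and 4 of 17 (23.5%). By position (gene body or within 5 kb of a TSS) the difference between roles in H3K27ac was not seen, with 5 of 24 (20.8%) and 5 of 17 (29.4%) in B6, and 1 of 24 (4.17%) and 2 of 17 (11.8%) in NOD. Over all genes, the B6 and NOD shares were 16.8% and 18.3% for naming in H3K27ac and 16.3% and 24.2% for H3K4me3. By position in H3K27ac they were 14.4% and 16.3%. The B6 H3K4me3 share of inhibitors and targets was thus near that of all genes. Both NOD shares by position were below it. The role shares are of a few genes from 1 library each and carry no test.

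**Figure D2:**
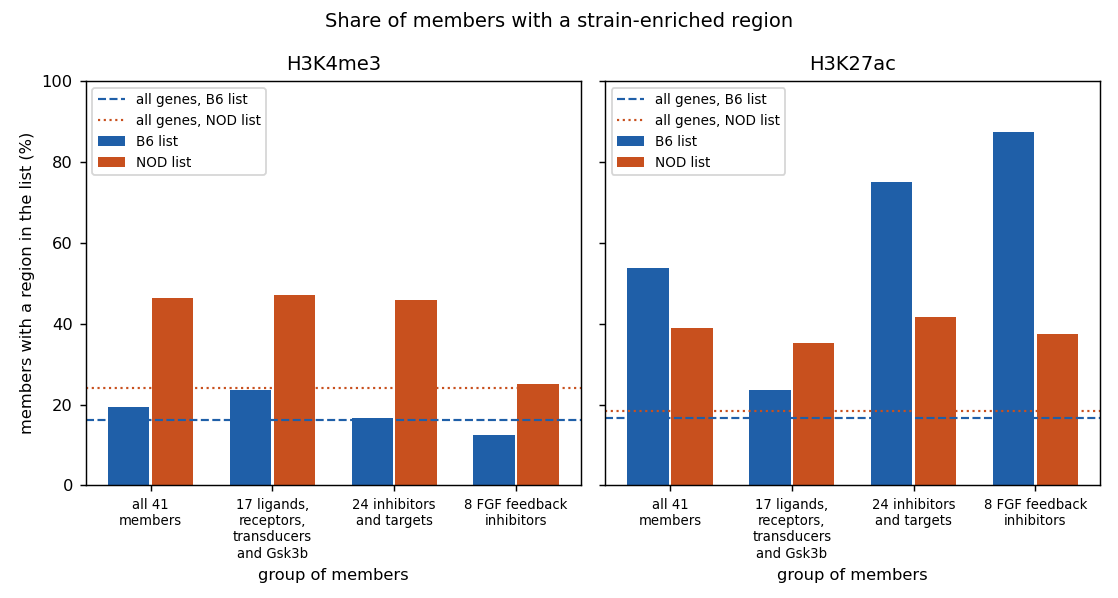
Percentage of members with a strain-enriched region, by group of members (x axis) for H3K4me3 (left) and H3K27ac (right), with the B6 list in blue, the NOD list in orange and the share of all protein-coding genes as a line of the same colour. The 8 FGF feedback inhibitors reach 87.5% in the B6 H3K27ac list and 37.5% in the NOD list, against lines at 16.8% and 18.3%. By position (not drawn) they were at 25% and 0%, against 14.4% and 16.3% of all genes.

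As in the whole lists, few of the H3K4me3 regions of members covered a TSS. Of the 37 member regions, 8 in B6 and 29 in NOD, 1 covered a TSS of the member, that of Lif, and 4 had their centre within 1 kb of a TSS (Dusp6, Fos, Lif and Pim1). The share covering a TSS was 0% of the member regions in B6 and 3.45% in NOD, against 3.68% and 3.15% of all regions in the lists. The lists also hold regions away from genes. Among regions counted for any protein-coding gene by the same rule, the shares were higher, 6.58% in B6 and 5.47% in NOD. The centre lay in an intron for 24, in an exon for 3 (Egr1, Mycn and Lif) and outside the gene for 10. Most regions were small, with 30 of exactly 500 bp, the size of 1 peak call. Their tag numbers were ordinary for the lists, with a median of 21 B6 tags over the 8 B6 regions (20 over the whole list) and of 29 NOD tags over the 29 NOD regions (30 over the whole list). No member region of H3K4me3 overlapped an H3K27ac region of either list that was named for a member or any other gene.

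The authors required a fold of at least 4 over the other strain, so the folds below describe the regions and are no test of a strain difference. Folds are ratios of tags scaled by the library totals, with an exact 95% interval that covers counting error only. Where the other strain had 0 tags, the fold is a lower bound against 3 tags.

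Of the 5 FGF ligands and receptors, 3 (Fgf4, Fgfr1 and Fgfr2) had NOD-enriched H3K4me3, against 24.2% of all genes. In the B6 list there were 0, against 16.3%. Fgf4, the FGF ligand of ES cells, had 5 B6 and 96 NOD tags in a 1483 bp region (chr7:144856337-144857820) whose centre lay 4.31 kb upstream of the TSS. Per 10000000 tags of the library these are 3.38 in B6 and 42.2 in NOD, 12.5-fold higher in NOD (interval 5.17 to 39.3). The same gene had a NOD H3K27ac region of score 18.4 at 9.56 kb upstream (chr7:144851715-144851948), and 4389 bp separated the marks. Fgfr1, the main FGF receptor of early ES cells, had 5 intronic regions in the NOD list, the highest with 10 B6 and 62 NOD tags at 2.04 kb inside the gene (4.03-fold, interval 2.05 to 8.82). The other 4 held 2 to 4 B6 tags and 17 to 29 NOD tags. Fgfr1 lies on chromosome 8, where 42.3% of all genes had a NOD H3K4me3 region, and so do Dusp4 and Smad1, which means that all 3 members on that chromosome were in the NOD list. Without them 16 of 38 members (42.1%) had a NOD region. Fgfr2 differed between the marks, with an intronic NOD H3K4me3 region of 0 B6 and 26 NOD tags and with 2 intronic B6 H3K27ac regions of score 6.68 (60.2 kb inside the gene) and 9.72 (13.2 kb inside the gene). Fgf5 and Fgf8, ligands of later epiblast stages, had no region in any list.

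The FGF feedback inhibitors were named mostly in the B6 H3K27ac list. Of the 8, the B6 list named 7 (Dusp5, Dusp6, Spry1, Spry2, Spry4, Spred1 and Spred2) with 9 regions, against 16.8% of all genes, and the NOD list named 3 (Dusp6, Spred1 and Spred2) with 4 regions, against 18.3%. Apart from the one before Dusp6, the B6 regions lay 11.9 to 102 kb from the TSS. By position 2 of the 8 were counted in B6 (Dusp6 and Spred2), against 14.4% of all genes, and 0 in NOD, against 16.3%. Dusp6, the ERK phosphatase that is a classic readout of FGF signalling, had B6 regions of both marks before its TSS. Its H3K4me3 region (chr10:99262263-99262763, 0.718 kb upstream) held 17 B6 tags and 0 NOD tags, at least 8.72-fold higher in B6. Its H3K27ac region (chr10:99261440-99261922, 1.55 kb upstream, in a CpG island) had a score of 22.8, rank 1481 of 5525, and began 341 bp further upstream. The only NOD H3K27ac region named for Dusp6 was 90.4 kb downstream with a score of 4.01, the lowest of all member regions.

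Spred1 and Spred2 encode membrane-bound inhibitors of RAS to RAF signalling. Spred1 had the highest-scoring B6 H3K27ac region of the FGF genes, 1177 bp wide at 102 kb upstream (chr2:117018028-117019205), with a score of 68.5 and rank 396, and a NOD region of score 13.4 at 67.5 kb upstream. Spred2 had the highest score of all member regions, 91 in NOD (rank 529 of 6126), but its centre lay 419 kb upstream in an L1 repeat (chr11:19504511-19505639). It was also the only one of the 50 H3K27ac regions to overlap an H3K4me3 region, a NOD-enriched one too far from the gene to be counted for it. Closer to Spred2, the B6 list held an intronic region of score 7.58 at 20.5 kb inside the gene. The sprouty genes, inhibitors of receptor signalling to ERK, were named in B6 only, with scores of 8.48 to 14.7. Dusp4, also an ERK phosphatase, was in the NOD H3K4me3 list alone, with 8 B6 and 50 NOD tags at 1.62 kb inside the gene (4.06-fold, interval 1.91 to 9.93).

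Among FGF and ERK targets the strains differed gene by gene. Fos, an immediate early gene of ERK, had 30 B6 and 7 NOD H3K4me3 tags in a region just before its TSS (chr12:85473336-85473836, centre 0.304 kb upstream), 6.59-fold higher in B6 (interval 2.84 to 17.8). This region held the SRF motif CCATA followed by TTAGG, which is at 304 bp upstream of the TSS and is in capitals in the Fos sequence above. The letters searched are those of the known serum response element of Fos and not a general SRF consensus, so the choice of letters fixed a match at this gene. They were in 4 of 6325 regions of 500 bp in the B6 list (0.0632%) and in 21 of 32851 promoters of 300 bp (0.0639%). Fos also had B6 H3K27ac at 21.7 kb (score 36.1) and 44.3 kb upstream (score 8.49), and a NOD region of score 6.53 at 50.9 kb downstream. Egr1, the other immediate early gene, went the other way for H3K4me3, with 2 B6 and 26 NOD tags in its coding sequence.

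Mycn, the MYC family member of early embryos, had 2 B6 and 50 NOD H3K4me3 tags in a 630 bp region over its coding sequence (chr12:12936959-12937589), 16.3-fold higher in NOD (interval 4.27 to 138). Its H3K27ac regions were at scores of 14.7 and 6.79 in B6 and 16.3 in NOD. Myc had 1 NOD H3K27ac region at 6.69 kb upstream with a score of 28.4. A NOD H3K4me3 region of 2 B6 and 20 NOD tags lay 100 bp from it, outside the 5 kb window. The ETS factor genes Etv4 and Etv5 are switched on by ERK. Etv4 had a 954 bp B6 H3K27ac region at 1.56 kb upstream (chr11:101786392-101787346) with a score of 26.7. Etv5 had 4 intronic NOD H3K4me3 regions of 0 to 3 B6 and 26 to 41 NOD tags, and a B6 H3K27ac region of score 8.14 in a SINE repeat.

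**Figure D3:**
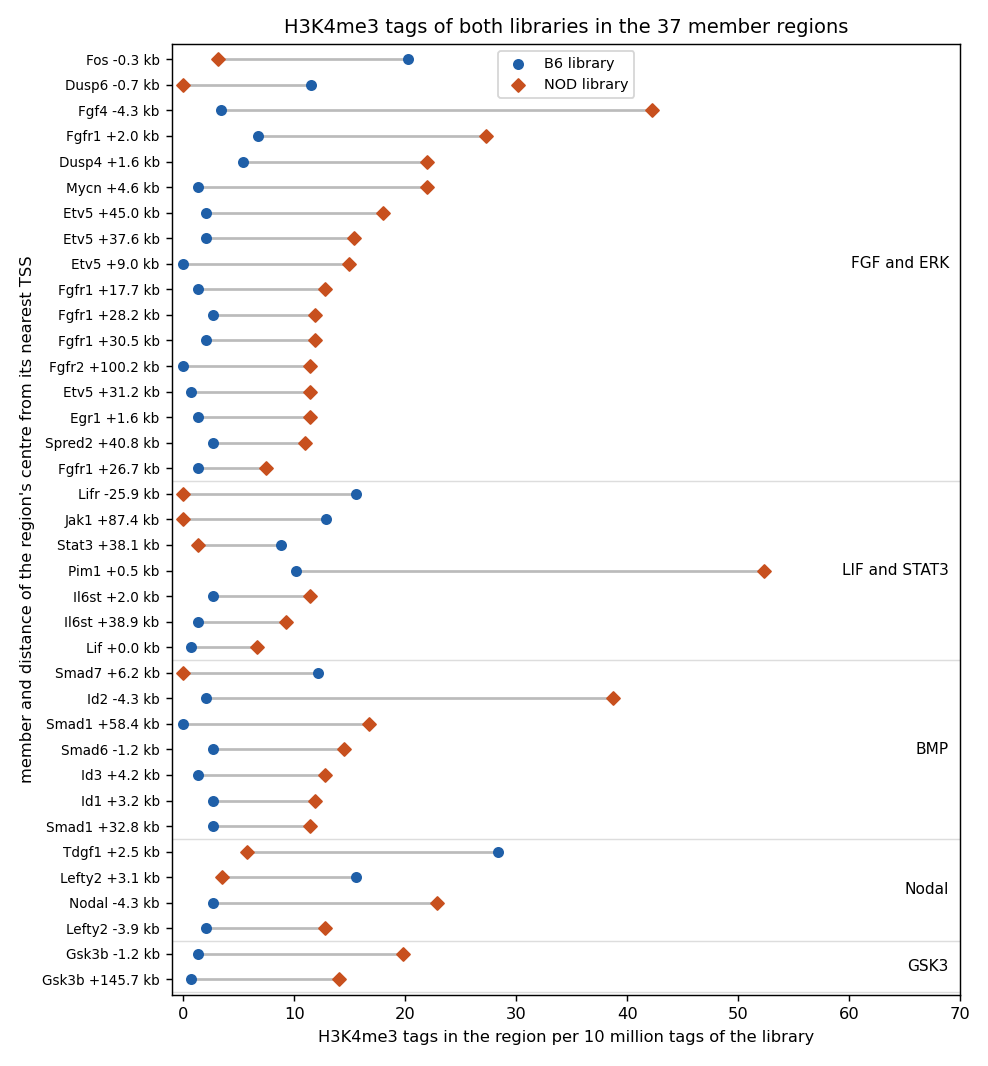
H3K4me3 tags per 10000000 tags of the library (x axis) in B6 (blue circles) and NOD (orange diamonds) for each of the 37 member regions (rows, by pathway, with the distance of the region's centre from the nearest TSS). Pim1 reaches 52.3 in NOD and Fgf4 42.2, while the highest B6 value is 28.4 in Tdgf1.

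In the LIF pathway, the ligand and the signal transducers were in opposite lists. Lif, the gene of a cytokine that sustains self-renewal of ES cells, had NOD regions of both marks. Its H3K4me3 region over the TSS (chr11:4257351-4257851) held 1 B6 tag and 15 NOD tags, the fewest own tags of the NOD member regions (9.75-fold, interval 1.5 to 411). Its H3K27ac region, 36.1 kb downstream of the nearest Lif TSS, was 233 bp wide with a score of 70.2 (rank 708 of 6126). By score per base pair it ranked 20 in the list. The receptor gene Lifr had a B6 H3K4me3 region of 23 B6 and 0 NOD tags in an intron (chr15:7103467-7103967, at least 11.8-fold higher in B6) and a NOD H3K27ac region of score 4.84 at 47.2 kb upstream.

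Jak1 and Stat3, which carry the LIF signal, had B6 H3K4me3 regions deep inside the gene with their centres in introns, of 19 B6 and 0 NOD tags in Jak1 and of 13 B6 and 3 NOD tags in Stat3, and no H3K27ac region. Il6st, the shared receptor subunit gp130, had 2 intronic NOD H3K4me3 regions of 21 and 26 NOD tags. It had an intronic NOD H3K27ac region of score 9.13, a NOD region of score 7.77 at 37.3 kb upstream, and a B6 region of score 7.13 in the noncoding part of its last exon. Among the STAT3 targets, the kinase gene Pim1 had the most H3K4me3 tags of any member region, 15 in B6 and 119 in NOD over 782 bp (chr17:29493229-29494011), 5.16-fold higher in NOD (interval 3.0 to 9.50), with a NOD H3K27ac region of score 9.92. Pim3 had H3K27ac scores of 19 in B6 (7.42 kb upstream) and 20 in NOD (30.7 kb downstream). Socs3, the feedback inhibitor of JAK signalling, had a B6 H3K27ac region of score 10.1 in an ERVK repeat.

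Of the 8 members of the BMP pathway, 1 was in the B6 and 5 were in the NOD H3K4me3 list, against 16.3% and 24.2% of all genes. In H3K27ac, 6 were named in the B6 and 3 in the NOD list, against 16.8% and 18.3%. By position the counts were 3 in B6 (Bmpr1a, Smad6 and Smad7) and 2 in NOD (Bmpr1a and Smad7), without the Id genes. The shares of all genes by position were 14.4% and 16.3%. The targets Id1, Id2 and Id3 encode inhibitors of basic helix-loop-helix factors, and all 3 had NOD H3K4me3 within 5 kb of the TSS. Id2 had 3 B6 and 88 NOD tags in a 945 bp region at 4.27 kb upstream (chr12:25099890-25100835), 19.1-fold higher in NOD (interval 6.32 to 94.3). Id1 had 4 B6 and 27 NOD tags at 3.21 kb downstream and Id3 had 2 B6 and 29 NOD tags at 4.17 kb downstream. The H3K27ac regions of the same genes were in B6, at scores of 10.9 for Id1, 14.5 for Id2 and 72.9 for Id3, and Id1 also had a NOD region of score 12.1 (chr2:152726286-152726581), the highest of the BMP genes in that list. The Id3 region was the highest-scoring B6 region of all members (rank 356 of 5525), 1689 bp wide at 36.97 kb upstream in an LTR repeat (chr4:136106013-136107702).

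Smad6 and Smad7, the inhibitory SMADs, differed from each other. Smad6 had NOD H3K4me3 at 1.19 kb upstream, of 4 B6 and 33 NOD tags, and 2 intronic B6 H3K27ac regions of score 7.35 (3.96 kb inside the gene) and 8.48 (49.9 kb inside the gene). Smad7 had an intronic B6 H3K4me3 region of 18 B6 and 0 NOD tags, at least 9.23-fold higher in B6, and 50 bp from its edge a NOD H3K27ac region of score 10.5. It also had 3 B6 H3K27ac regions. The widest of all member regions, of 9768 bp over the end of the gene, had a score of 61.1 and a slope value of 1.56. It was counted here as a super enhancer. It ranked 485 of 5525 by score and 5302 by score per base pair. The other 2 scored 36.7 and 33.8 over 392 and 408 bp. Smad1, the signal transducer, had 2 intronic NOD H3K4me3 regions of 26 and 38 NOD tags on chromosome 8. The one of 38 tags lay nearer to a TSS of Mmaa than to that of Smad1. The receptor gene Bmpr1a had 2 intronic H3K27ac regions in each list, scored 7.92 and 11.9 in B6 and 8.56 and 11.6 in NOD, with the last of these 1.11 kb from the TSS. Bmp4, the ligand, had no region in any list by these rules.

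Of the 5 members of the Nodal pathway, 2 (40%) were in each H3K4me3 list, against 16.3% of all genes in B6 and 24.2% in NOD. In H3K27ac, 1 (20%) was in the B6 list, against 16.8% of all genes, and 0 in the NOD list, against 18.3%. Nodal, the ligand, had 4 B6 and 52 NOD H3K4me3 tags in a 785 bp region at 4.33 kb upstream (chr10:61413247-61414032), 8.45-fold higher in NOD (interval 3.11 to 32.2), and a B6 H3K27ac region of score 24.8 at the end of the gene (chr10:61425283-61425643, rank 1375). Tdgf1, the co-receptor, had the most B6 tags of any member region, 42 in B6 and 13 in NOD, at 2.46 kb inside the gene (chr9:110943357-110944047, 4.97-fold, interval 2.62 to 10.1). Lefty2, an inhibitor of Nodal, had a B6 region of 23 B6 and 8 NOD tags in an intron and a NOD region of 3 B6 and 29 NOD tags at 3.91 kb upstream. Lefty1 and the receptor gene Acvr2b had no region in any list. Gsk3b, the target of CHIR99021, had 2 B6 and 45 NOD H3K4me3 tags at 1.204 kb upstream (chr16:38087547-38088047), 14.6-fold higher in NOD (interval 3.82 to 124), and a further NOD region of 1 B6 and 32 NOD tags near the end of the gene. That further region lay 146 kb from the TSS of Gsk3b and nearer to a TSS of Nr1i2. Gsk3b was named for no H3K27ac region, but by position a B6 one lay in its body.

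Regions with a slope value of 1 or more and a score above the median of their list were counted as super enhancers. This cut, which leaves out the steep tail of low scores, was set here and is not the authors' call. It took in 3 member regions. Smad7 was the only member with one in B6, against 1.39% of all genes, and Lif and Spred2 had one in NOD, against 1.67%. Among the other 47 H3K27ac regions, Spred1 and Id3 of B6 had slope values of 0.872 and 0.982. Their scores of 68.5 and 72.9 were above the 61.1 of Smad7, so the slope values did not follow the scores. The median score was close to that of the lists, 11.9 over the 31 B6 regions (12.8 over the whole list) and 11.6 over the 19 NOD regions (12.95 over the whole list). Member regions lay further out, at a median of 25.0 kb from the TSS in B6 (21.1 kb over the whole list) and 36.1 kb in NOD (17.8 kb), and 4 of 50 were within 5 kb, those of Dusp6, Etv4, Bmpr1a and Smad6. That is 9.68% of the member regions in B6 and 5.26% in NOD, against 19.9% and 27.46% of the lists. In repeats lay 9 of 50, or 19.4% in B6 and 15.8% in NOD, against 30.5% and 38.4% of the lists.

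**Figure D4:**
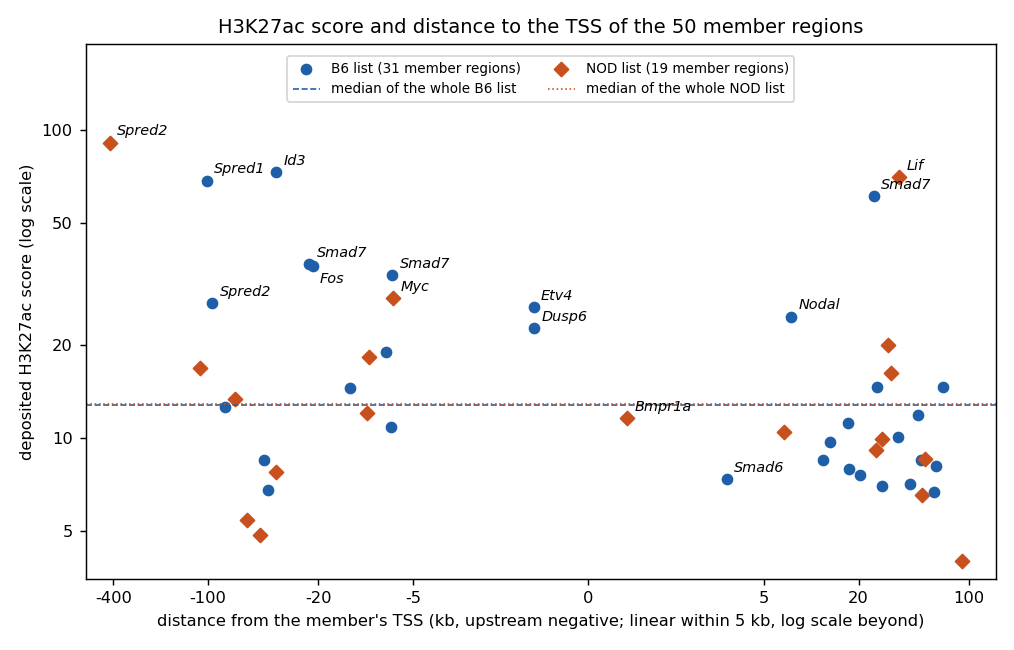
Deposited H3K27ac score (y axis, log scale) against the distance from the member's TSS (x axis in kb, linear within 5 kb and log beyond) for the 31 B6 (blue circles) and 19 NOD (orange diamonds) member regions, with the median score of each whole list as a line. Scores of 50 or more are found at Spred1, Spred2, Id3, Lif and Smad7, all over 20 kb from the TSS, and 4 regions lie within 5 kb.

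Both marks in the same strain were found for 3 members in B6 (Dusp6, Fos and Smad7), against 4.64% of all genes, and for 8 in NOD (Fgf4, Fgfr1, Spred2, Mycn, Lif, Il6st, Pim1 and Id1), against 7.3%. By position for both marks the order was the other one, with 2 in B6 (Dusp6 and Smad7, against 4.55% of all genes) and 1 in NOD (Il6st, against 7.52%). No H3K4me3 region counted for these genes overlapped their H3K27ac region of the same strain, and the closest such pair was that of Dusp6, at 341 bp. The marks were in lists of opposite strains for 4 members with B6 H3K4me3 and NOD H3K27ac (Dusp6, Fos, Lifr and Smad7), against 3.7% of all genes, and for 10 with NOD H3K4me3 and B6 H3K27ac (Fgfr2, Spred2, Etv5, Mycn, Il6st, Smad6, Id1, Id2, Id3 and Nodal), against 5.47%. Some of these had both marks in the same strain as well. Some calls rest on NOD H3K27ac regions near the bottom of the list by score, such as Lifr (rank 6060 of 6126) and Dusp6 (rank 6094). The NOD region of Fgfr1 lay 56.3 kb upstream, with a score of 5.41 and rank 5983. Members were also in 3 of the 4 single lists at a higher share than all genes by over 1.5 times, which bears on all 4 counts of paired marks.

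**Figure D5:**
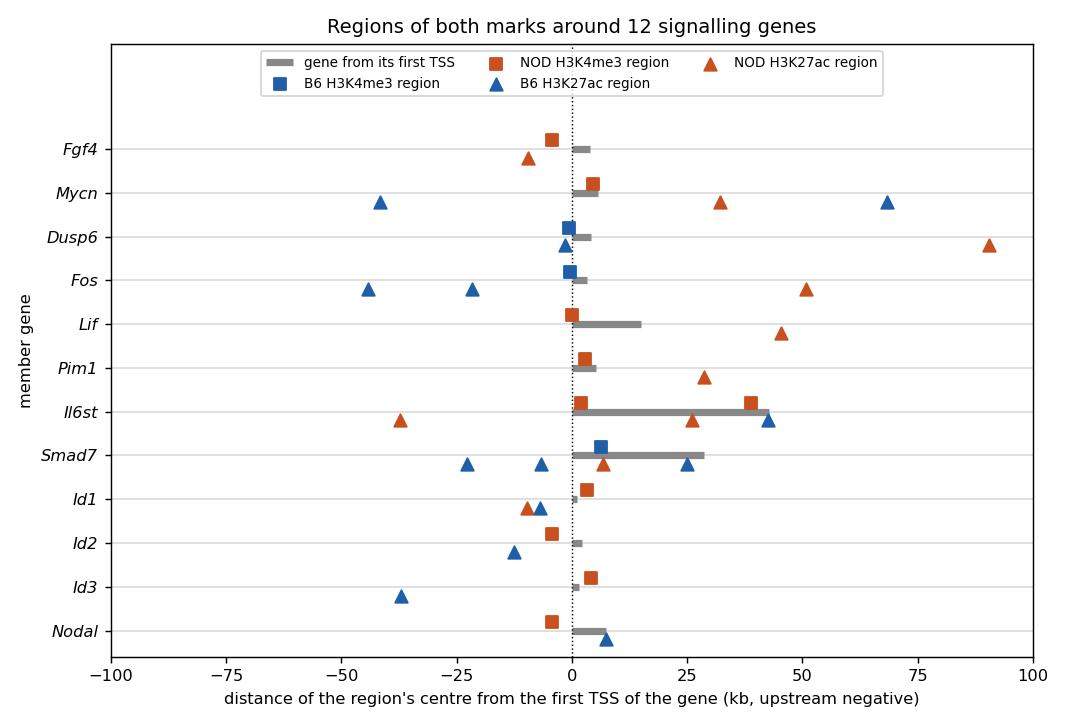
Centres of H3K4me3 regions (squares) and H3K27ac regions (triangles) of the B6 (blue) and NOD (orange) lists, as distance in kb from the first TSS, for 12 members (rows), with the gene as a grey bar. Fgf4, Lif and Pim1 have regions of NOD only, while Id2, Id3 and Nodal have a NOD square and a B6 triangle.

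The base content and motifs of the H3K4me3 regions were compared with those of the lists, which also hold regions away from genes. Member regions were taken only in gene bodies or within 5 kb of a TSS. They were not compared with regions of other genes by the same rule, and the part of that rule was not tested. The NOD H3K4me3 member regions had a median observed over expected CpG ratio of 0.368, against 0.234 over the whole NOD list, and a GC content of 50.8% against 45.9%. The B6 regions were close to their list, at 0.229 against 0.233. Among 23 NOD member regions of 500 bp, 5 held GGCGCC (21.7%, against 4.82% of 8789 regions of that width), those of Dusp4, Egr1, Smad6, Id1 and Id3. This motif is itself GC-rich, and the part of base content in its share was not tested. It was also in 13 of 33 promoters of 300 bp found for 30 members (39.4%, against 11.9% of 32851). The stricter STAT palindrome TTCCNGGAA, every match of which is also one of TTCNNNGAA, was in 2 of the 23 (8.70% against 1.33%), Spred2 and Etv5, and TTCNNNGAA in 5 (21.7% against 15.3%). TGTGNATT was in 3 of the 23 (13.0% against 9.74%), CCGGAAGT in 1 (4.35% against 0.808%), and TGACNTCA and the SRF motif in 0 (against 7.51% and 0.0910%). Among 7 B6 regions of that width, Jak1 had TTCNNNGAA and TGACNTCA (14.3% each, against 15.6% and 7.65%), Fos the SRF motif, whose letters come from Fos itself, and none held the others. A match is a run of letters and no evidence of binding.

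The other genes of these pathways gave a comparison from a longer list of 121. Of these, 30 (24.8%) had a B6 H3K4me3 region, against 16.3% of all genes, and 33 (27.3%) a NOD one, against 24.2%. For H3K27ac, 36 (29.8%) were named in B6, against 16.8%, and 44 (36.4%) in NOD, against 18.3%. The NOD count was above the B6 count for both marks, as over all genes. For H3K27ac this is the opposite of the order in the 41 members. With both marks in the same strain there were 12 in B6 (9.92%, against 4.64% of all genes) and 13 in NOD (10.7%, against 7.3%). The 10 with the most own tags, not scaled for depth, were Fgf3, Osm, Sos2, Dusp14, Dusp1 and Rps6ka3 in NOD, and Bmpr1b, Fgf10, Smad3 and Bmpr2 in B6. Per 10000000 tags of the library, Ier3 in B6 (42 tags, 28.4 scaled) would take the place of Rps6ka3 (61 NOD tags, 26.8 scaled). Fgf3, the ligand gene next to Fgf4, had 80 B6 and 516 NOD H3K4me3 tags at its TSS (4.19-fold, interval 3.31 to 5.38) and a NOD H3K27ac score of 61.2. Osm, the neighbour of Lif and a cytokine of the same family, had 42 B6 and 330 NOD tags (5.11-fold, interval 3.70 to 7.22) and a NOD H3K27ac score of 20.2. Dusp1, an ERK and p38 phosphatase, had 10 B6 and 80 NOD tags and a NOD H3K27ac score of 188.

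Just outside the 5 kb window lay regions of 6 members. In NOD these were 4 B6 and 43 NOD tags at 7.77 kb upstream of Bmp4, 2 and 51 tags at 8.68 kb downstream of the TSS of Spry1, 0 and 36 tags at 6.06 kb upstream of Tdgf1, 2 and 26 at 7.99 kb upstream of Id1 and 2 and 20 at 6.03 kb upstream of Myc. In B6 it was 24 and 0 tags at 5.95 kb upstream of Jak1. Of the regions outside a gene body, the outermost counted upstream were those of Nodal at 4.33 kb and Fgf4 at 4.31 kb. With the 10 kb window the counts were 8 members in B6 and 23 in NOD, and the share of all genes was not worked out for it.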

How the data were processed

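ChIP-Seq libraries of H3K4me3 and H3K27ac from B6 and NOD ES cells (1 per strain and mark) were sequenced as single-end 50 bp reads. According to the study's methods, reads were aligned to mm10 with bowtie2 and analysed with HOMER v4.8. The submitters' processing notes instead list mm9, STAR 2.2.0c and CASAVA 1.8.2; of 50 H3K27ac distances to a TSS, 43 lay within 10 bp of those from GRCm38.p6 RefSeq, so mm10 was used. NOD reads were aligned to the C57BL/6J sequence, and the effect was not tested. The paper states, where it describes its mRNA-Seq, that the ES cells were grown without feeders. It does not repeat this for the ChIP-Seq cultures.

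For H3K4me3, per the file headers, the authors called 500 bp peaks of at least 8 tags, 4-fold over the other strain's library, and stitched them into regions. The B6 list gives the deposited count of tags in whole numbers, and the deposited signal of the NOD list was turned back into whole tags with the library totals (100% of values within 0.1 of a whole number). The deposited peak score of H3K4me3 was not used. For H3K27ac, the authors ran the HOMER super enhancer pipeline and annotated regions. The deposited score is own signal minus the other strain's, on a scale not stated. The meaning of the next column is not stated either, and it was read here as slope values of the ranked score curve. The fold and p-value columns of the H3K4me3 lists are the authors' comparison of both libraries and were not used.

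Genes were joined to regions in Python 3.11.15 (pandas 2.3.3, numpy 2.4.6, scipy 1.17.1, pysam 0.24.0), an overlap of 1 bp counting. Folds have exact conditional 95% intervals, which cover counting error only since reads had no molecular identifiers. With 1 library per group no test was made. The interval and the window functions were tested on simulated data. Members, lists and rules were chosen with earlier results of these data known. Values were given for H3K4me3 regions over a TSS or with 50 or more own tags, for H3K27ac regions with scores of 50 or more, within 5 kb of a TSS or in the gene body, and for the top region of each pathway and list; other regions are given by range, or as examples chosen after their values were seen. Of the other pathway genes, 1 symbol matched no gene. Alternatives to windows, tag and score minimums and ranks are in the closing section.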

Additional observations from a re-analysis of the deposited data

How the results depend on the processing

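The counts of members depended on the rule that joined regions to genes. With H3K4me3 regions within 1 kb of a TSS, 2 members were counted in B6 and 4 in NOD, and 12 and 14 of the other pathway genes. Without gene bodies the B6 count was 4, and by the nearest TSS it was 19. With 20 or more own tags at the B6 library size the counts were 4 in B6 and 11 in NOD, with 50 or more 0 and 3, and with a fold of 8 or more 4 and 11. For H3K27ac, position (gene body or 5 kb) gave 10 members in B6 and 3 in NOD, a score of 20 or more gave 8 and 4, and a slope value of 1 or more gave 1 and 2. For both marks in the same strain, overlapping regions gave 0 in both strains, and position for both marks gave 2 in B6 and 1 in NOD, which turned the order of the strains (3 and 8).

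The NOD H3K4me3 count was above the B6 count under each of these, and also with a 10 kb window, with a 250 bp overlap and without chromosome 8, the last chosen after seeing the data. All genes had the same order under the main rule, at 16.3% in B6 and 24.2% in NOD. Shares of all genes were not worked out for the 1 kb, 10 kb, tag, fold, score and 250 bp settings. Those counts do not show whether members exceed other genes. The B6 H3K27ac count was above the NOD count except for super enhancers. With 1 tag added to both strains, 3 of the 30 folds that are no bounds fell by over 1.5 times and 22 stayed at 4 or more. By score per base pair 22 of 50 H3K27ac regions changed rank by over 1.5 times. The authors' fold in place of the recomputed one was not run. No paired analysis was possible because each strain and mark had 1 library. Without replicates, the spread between cultures of a strain is unknown, and H3K27ac regions hold no tags, so their precision is unknown too.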
